A study of Mus musculus with 18 samples.

Results

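The 50 genes described here encode the secreted WNT ligands, their Frizzled receptors, the secreted inhibitors and enhancers of the signal, and a set of genes that the signal itself switches on. They were taken by gene symbol: 19 WNT ligands, 10 Frizzled receptors, 9 antagonists of the Sfrp, Dkk and Wif families, 4 R-spondins and 8 targets of the beta-catenin pathway. All 50 symbols were found in both deposited count tables, among 26157 symbols in the table of day 2 and 54114 symbols in the table of days 8 and 16.

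WNT proteins are lipid-modified ligands that bind Frizzled receptors together with a co-receptor. In the canonical branch the receptor complex spares beta-catenin from destruction, and beta-catenin then joins TCF/LEF factors at target genes, several of which encode feedback inhibitors of the same pathway. In other branches, which Wnt5a is best known for, Frizzled and ROR receptors act on cell polarity and movement without beta-catenin. In the embryo, WNT signals act in the induction of the neural crest and later in the outgrowth of facial processes, teeth and limbs.

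RNA was sequenced from mouse embryonic stem (ES) cells with a tdTomato reporter at Msx1, a homeobox gene of facial mesenchyme, and from embryoid bodies (EBs), the aggregates that such cells form when they differentiate. The question was how forced expression of the homeobox gene Dlx2 affects their path toward ectomesenchyme, the neural crest-derived mesenchyme of the face. At day 2 the groups were EBs of the doxycycline-inducible Dlx2 line (Dlx2 EBs) and EBs of the doxycycline-inducible GFP line (GFP EBs). Both were taken as the samples given 1 µg/ml doxycycline, although their columns name the line and not the treatment. Uninduced EBs of both lines were described too, but no column was assigned to them. At days 8 and 16 they were cells of EBs of the inducible Dlx2 line, sorted into Msx1-positive and Msx1-negative cells. Both sorted fractions came from EBs formed with doxycycline, at the stated 1 µg/ml, so the sorted comparisons hold no uninduced and no GFP control. The remaining group is the 2 libraries labelled ES, given as wild type and untreated. Each of the 7 groups had 2 libraries, 14 in all. The labels do not say whether the 2 libraries of a group came from separate cultures, so the p-values measure the spread between these libraries only. The day-2 libraries held 26211608 to 41552818 counts and the others 53797597 to 107770730. Levels are given as counts scaled to the size of the library (CPM, with TMM factors), and levels compared between genes are also divided by exon length (RPKM). The tables of day 2 and of the later stages were counted separately and were not tested against each other.

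The transcripts behind the labels were checked first. Dlx2 was at 4344 and 4720 CPM in the Dlx2 EBs and at 0.0812 and 0.0808 CPM in the GFP EBs. It was at 1137 and 1270 CPM in Msx1-positive and 269 and 272 CPM in Msx1-negative cells at day 8, and at 288 and 341 CPM against 131 and 146 CPM at day 16. The libraries labelled ES held 219 and 222 CPM of Dlx2, which goes against the label of untreated wild-type cells, and they are called by their label throughout. Msx1, the sorted gene, was at 40.9 and 46.8 CPM against 1.90 and 1.02 CPM at day 8, and at 73.7 and 81.6 CPM against 0.818 and 0.752 CPM at day 16. Marker sums of cell types differed too, to an extent that varied by set and stage. The summed level of 8 pluripotency genes was 5216 and 5262 CPM in GFP EBs and 1069 and 1097 CPM in Dlx2 EBs. It was 4868 and 4927 CPM in Msx1-negative against 1237 and 1203 CPM in Msx1-positive cells at day 8, and 3704 and 3502 CPM against 220.4 and 232.8 CPM at day 16. The sum of 8 mesenchyme genes ran the other way, at 14.04 and 14.83 CPM in GFP and 1520 and 1538 CPM in Dlx2 EBs, 64.44 and 63.53 CPM against 2088 and 2352 CPM at day 8, and at 697.8 and 775.4 CPM against 17090 and 15690 CPM at day 16. None of these 16 genes was at 0 counts in those groups. The sum of 8 endoderm genes was 4.1 and 4.201 CPM in GFP and 27.57 and 29.02 CPM in Dlx2 EBs. At day 8 it was 33.61 and 35.2 CPM in Msx1-negative against 37.68 and 40.67 CPM in Msx1-positive cells. It was higher in the day-16 Msx1-negative cells, 393.1 and 404.5 CPM against 121 and 124.3 CPM. At that day the sums of 8 endothelium genes (265.1 and 287.1 CPM against 80.17 and 75.32 CPM) and of 8 epithelium genes (1736 and 1765 CPM against 934.8 and 970.8 CPM) were higher there too. So were those of 8 neural genes, 216.4 and 216.2 CPM against 83.62 and 92.83 CPM. The 8 trophoblast genes stood at 182.3 and 179.2 CPM against 94.41 and 98.02 CPM. Blood genes ran the other way, at 24.43 and 22.48 CPM against 47.33 and 49.83 CPM. Muscle genes did so as well, at 30.46 and 30.43 CPM against 73.2 and 77.89 CPM. The epithelium sums lay closer at day 8, at 908.2 and 919.9 CPM against 871.8 and 890.6 CPM. The part of these cell types in the results below was not tested, and in bulk libraries fewer cells of a type and less RNA per cell cannot be told apart.

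Start-site sequences were searched for the TCF/LEF letters through which beta-catenin acts. RefSeq promoter sequences of build GRCm38.p6 were at hand for 33 members with 40 start sites; the 17 others were Wnt5a, Wnt7b, Wnt8a, Wnt10a, Fzd2, Fzd3, Fzd6, Fzd8, Sfrp1, Sfrp4, Dkk3, Dkk4, Rspo2, Rspo3, Znrf3, Lgr5 and Notum. The letters CTTTG followed by A or T and then again by A or T were looked for on both strands in the 250 bases before each start. They were found before 5 of the 40 starts (12.5%), against 14.8% of the 32851 promoters in the table. The 5 starts belong to Dkk1, Wnt11, Lef1, Fzd7 and Wnt5b. Windows of a gene with several starts can overlap, as they do for Lef1, and are counted separately. Some windows lie partly or wholly in a GENCODE exon of their own gene, which holds all 250 bases for Fzd10. The homeobox letters TAATTA were found before 1 of the 40 starts, that of Wnt8b, against 4.84% of all promoters, and TAATTG before 0 of the 40, against 7.17%. No motif searched contains another. The sequences below are shown because Wnt11 and Dkk1 are secreted members whose levels separate the sorted cells of day 8, and in the case of Dkk1 also those of day 16, and Lef1 and Axin2 are canonical targets that part ways in these libraries. Capitals mark TCF/LEF letters, and all are written 5′ to 3′ on the strand of the gene. The Wnt11 window is chr7:98834862-98835111 on the plus strand, with a match that starts 51 bases before the transcript start.
Wnt11: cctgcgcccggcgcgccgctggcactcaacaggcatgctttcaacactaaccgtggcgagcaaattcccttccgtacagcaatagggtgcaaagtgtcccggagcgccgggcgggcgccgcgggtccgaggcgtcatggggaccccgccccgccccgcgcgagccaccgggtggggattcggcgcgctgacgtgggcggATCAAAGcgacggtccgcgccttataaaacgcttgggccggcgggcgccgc
The Lef1 window is chr3:131156044-131156293 on the plus strand, before a start that lies inside the gene, with a match that starts 147 bases before it; the other 3 Lef1 windows held none.
Lef1: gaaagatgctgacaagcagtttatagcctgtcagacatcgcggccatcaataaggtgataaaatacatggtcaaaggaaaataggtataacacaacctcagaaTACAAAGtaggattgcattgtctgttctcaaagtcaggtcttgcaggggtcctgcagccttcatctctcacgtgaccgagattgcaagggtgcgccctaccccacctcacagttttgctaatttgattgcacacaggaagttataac
The Axin2 window is chr11:108920099-108920348 on the plus strand and held no match.
Axin2: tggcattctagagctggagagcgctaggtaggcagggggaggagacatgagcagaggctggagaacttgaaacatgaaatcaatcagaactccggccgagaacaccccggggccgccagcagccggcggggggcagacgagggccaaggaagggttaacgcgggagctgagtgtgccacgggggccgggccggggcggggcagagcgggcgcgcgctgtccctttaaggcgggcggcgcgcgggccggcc
Of Dkk1 the 26 bases with both matches are shown, chr19:30549588-30549613 on the minus strand. They start 117 bases before the RefSeq start, and GENCODE places all 26 in the first exon of the gene.
Dkk1: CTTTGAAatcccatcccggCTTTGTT
A match of 7 letters is a description of the sequence and not a site of binding.

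In the table of days 8 and 16, 44 members had a mean of at least 1 CPM in each Msx1-positive group, 31 and 38 in the Msx1-negative groups of days 8 and 16, and 29 in the libraries labelled ES. The mean level reached 10 CPM for 26 of the 50 members in day-16 Msx1-positive cells, for 17 in day-8 Msx1-positive cells, for 16 and 11 in the Msx1-negative cells of days 16 and 8, and for 11 in the libraries labelled ES. In all, 34 members had their highest mean in the day-16 Msx1-positive cells and 6 in the day-8 Msx1-positive cells. The exceptions were Wnt7b, Wnt8a and Dkk4, highest in day-16 Msx1-negative cells, Sfrp1, Lef1 and Tcf7, highest in day-8 Msx1-negative cells, and Fzd5, Fzd9, Rspo1 and Notum, highest in the libraries labelled ES. The counts of this paragraph were not made over all genes, so whether they are particular to the members was not tested.

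**Figure D1:**
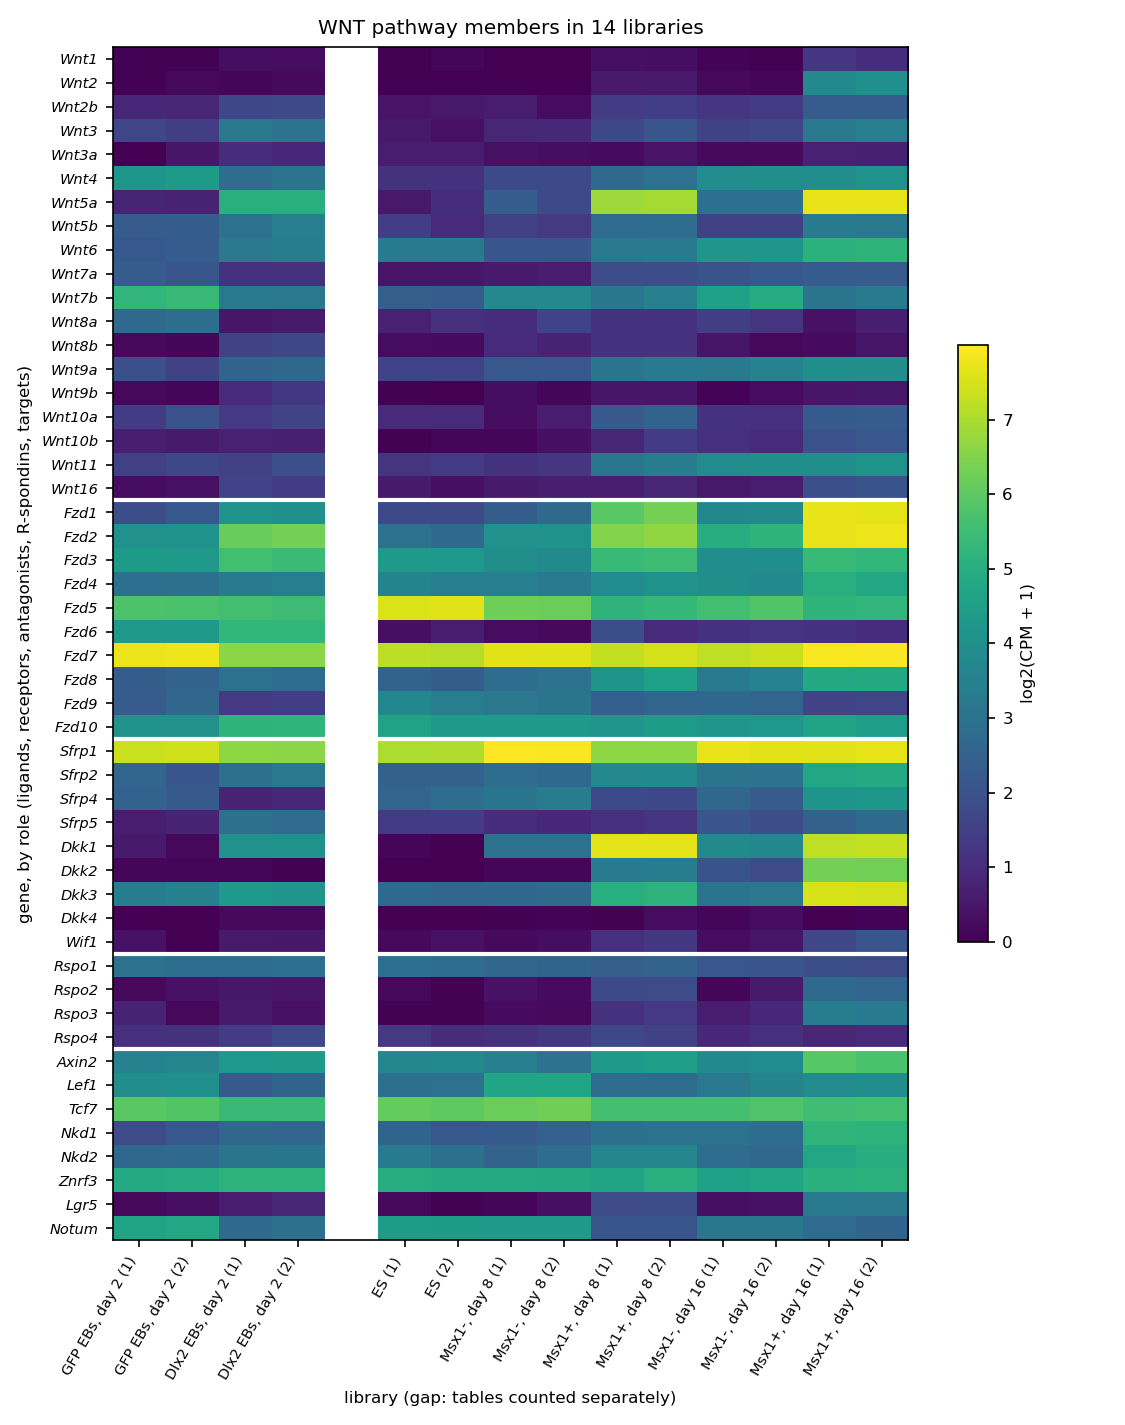
Level of each of the 50 members, as log2(CPM + 1), in each of the 14 libraries; rows are genes by role, columns are libraries, and the gap separates tables that were counted separately. Wnt5a, Fzd1, Fzd2, Dkk1 and Dkk3 are bright in Msx1-positive cells, while Fzd7 and Sfrp1 are bright in every group.

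Called genes are those with an adjusted p below 0.05 in edgeR's quasi-likelihood test across all genes. At day 2, 46 members could be tested; Wnt1, Wnt2, Dkk2 and Dkk4 had too few counts. In Dlx2 EBs 27 of the 46 were higher, against 34.1% of the 18650 genes tested, and 12 were lower, against 33%. At day 8, 31 of 50 members were higher in Msx1-positive than in Msx1-negative cells, against 30.4% of 22294 genes, and 9 were lower, against 24.3%. At day 16, 34 of 50 were higher, against 31.1%, and 5 were lower, against 31%. The median log2 change of the members tested was 0.745 at day 2, 1.29 at day 8 and 1.46 at day 16, beside 0.0236, 0.0625 and -0.0159 over all genes tested. With library size alone as the scale, the split of calls over all genes at day 2 was 8003 higher and 4576 lower in place of 6367 and 6157, and at day 8 it was 8071 and 4016 in place of 6772 and 5415. The members' split then was 28 and 11 at day 2 and 31 and 7 at day 8.

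**Figure D2:**
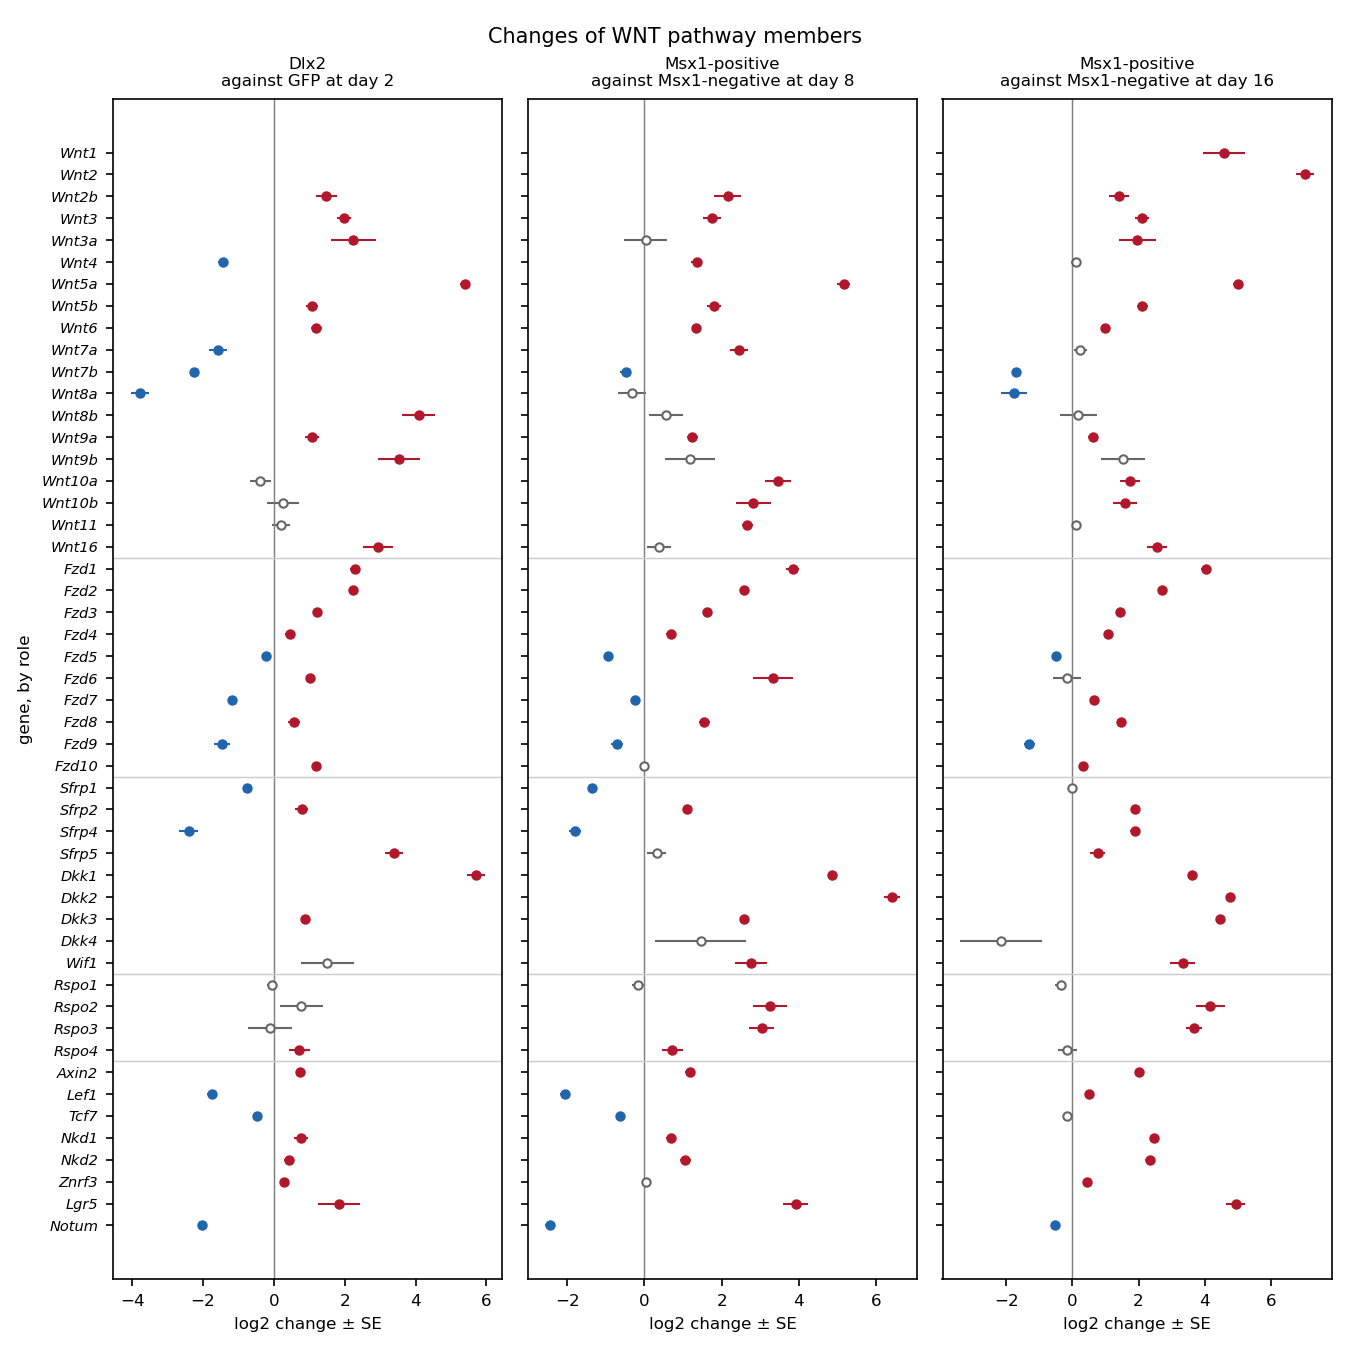
Log2 change of each member with its standard error, by role from ligands at the top to targets at the bottom, for Dlx2 against GFP EBs at day 2 and for Msx1-positive against Msx1-negative cells at days 8 and 16. Red points were called higher, blue points lower and open points were not called; members not tested, and Wnt1 and Wnt2 at day 8, which had 0 counts in Msx1-negative cells, are not drawn.

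Among the ligands, Wnt5a had the largest share in both Msx1-positive groups. Wnt5a, the ligand best known for beta-catenin-independent signaling, was at 0.771 and 0.727 CPM in GFP EBs and at 31.9 and 31.2 CPM in Dlx2 EBs. In the sorted cells it was at 4.07 and 2.37 CPM in Msx1-negative and 112 and 121 CPM in Msx1-positive cells at day 8, and at 6.59 and 6.49 CPM against 210 and 212 CPM at day 16. The groups did not overlap in any of the 3 comparisons. With 2 libraries a group, such statements here and below are descriptions only, since the share of all genes without overlap was not counted. Its log2 change was 5.39 ± 0.15 (SE) at day 2 (adjusted p = 1.3e-18), 5.16 ± 0.16 at day 8 and 5.01 ± 0.15 at day 16. The sorted difference of Wnt5a did not differ detectably between the days (-0.15 ± 0.22, adjusted p = 0.66), although without replicate 1 of the day-8 Msx1-negative cells the change was -0.59 with an adjusted p of 0.0097. Per exon length, Wnt5a made up 42.8% of the summed RPKM of all 19 ligands in day-8 Msx1-positive cells and 35.9% at day 16, and 4.48% and 2.93% in the Msx1-negative cells of those days.

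At day 2, 10 of the 17 ligands tested were higher in Dlx2 EBs and 4 were lower, beside 34.1% and 33% of all genes. Wnt7b, a ligand of epithelia and neural tissue, was at 37.4 and 40.4 CPM in GFP EBs and at 8.37 and 7.99 CPM in Dlx2 EBs (-2.25 ± 0.09 on the log2 scale, adjusted p = 1.4e-15). Wnt8a, a ligand of the early embryo and primitive streak, was at 5.6 and 6.38 CPM against 0.385 and 0.492 CPM in Dlx2 EBs. Wnt4 was at 17.7 and 19.5 CPM against 6.24 and 7.52 CPM, and Wnt7a at 4.06 and 3.39 CPM against 1.27 and 1.22 CPM. For all 4 of these the Dlx2 libraries lay below both GFP libraries. Wnt3, a canonical ligand needed for the primitive streak, was at 2.15 and 1.74 CPM in GFP and 8.12 and 7.20 CPM in Dlx2 EBs. Wnt8b was at 0.162 and 0.0808 CPM against 1.93 and 2.34 CPM. Wnt16 was at 0.203 and 0.283 CPM against 2.06 and 1.71 CPM. These 3 rose by 1.98 ± 0.19, 4.09 ± 0.47 and 2.94 ± 0.42 on the log2 scale, from low levels. Wnt9b rose from 0.122 and 0.0808 CPM to 0.998 and 1.45 CPM. Wnt2b rose from 0.893 and 0.808 CPM to 2.29 and 2.49 CPM. Wnt5b, Wnt6 and Wnt9a also rose, by 1.08 to 1.20 on the log2 scale, as did Wnt3a, whose GFP libraries held 0 and 0.404 CPM. Wnt10a, Wnt10b and Wnt11 were not called at day 2. The summed RPKM of the ligands was similar in both lines, 22.8 and 24.7 in GFP and 22.1 and 24.2 in Dlx2 EBs, but Wnt7b led in GFP EBs with 33.5%, while in Dlx2 EBs Wnt5a with 17.5% and Wnt6 with 17.3% were level and each led in 1 library.

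In the sorted cells 13 of the 19 ligands were higher in the Msx1-positive fraction at day 8 and 1 was lower, beside 30.4% and 24.3% of all genes. At day 16, 12 were higher and 2 lower, beside 31.1% and 31%. Wnt2, a ligand of mesenchyme beside forming organs, had 0 counts in both day-8 Msx1-negative libraries and 0.503 and 0.471 CPM in Msx1-positive cells, at least 18.7-fold higher when the negative group is set to 3 counts in all. At day 16 it was at 0.131 and 0.0818 CPM against 13.2 and 15.1 CPM, a log2 change of 7.03 ± 0.28. Wnt1, the ligand of the midbrain and dorsal neural tube that marks the early neural crest, was near the limit of detection: 0 counts against 0.251 and 0.236 CPM at day 8, and 0.0654 and 0.0327 CPM against 1.43 and 1.03 CPM at day 16. At day 8 that is at least 9.33-fold higher. Wnt3 was at 0.826 and 0.85 CPM in Msx1-negative and 2.33 and 3.28 CPM in Msx1-positive cells at day 8, and at 1.96 and 2.21 CPM against 8.44 and 9.62 CPM at day 16. Wnt5b, the close relative of Wnt5a, was at 1.88 and 1.52 CPM against 5.88 and 6.04 CPM, and then at 1.98 and 1.96 CPM against 8.78 and 8.29 CPM. Wnt6, a ligand of surface ectoderm and some mesenchyme, was at 3.37 and 3.40 CPM against 8.21 and 8.84 CPM, and then at 17.7 and 17.1 CPM against 33.3 and 36.0 CPM. The groups did not overlap for any of these 3 at either day, although the share of all genes for which this holds was not counted. Wnt2b was at 0.567 and 0.203 CPM against 1.69 and 1.82 CPM at day 8, and at 1.41 and 1.57 CPM against 3.94 and 4.04 CPM at day 16. Wnt10b, a ligand of hair, tooth and bone, was at 0.0972 and 0.259 CPM against 0.810 and 1.64 CPM, and then at 1.18 and 0.998 CPM against 3.05 and 3.49 CPM. Wnt2b was thus higher by 2.16 ± 0.35 and 1.42 ± 0.30 on the log2 scale, and Wnt10b by 2.82 ± 0.46 and 1.58 ± 0.36.

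A group of ligands separated the fractions at day 8 and no longer did so, or did less, at day 16. Wnt11, a ligand of cell movement and polarity, was at 1.26 and 1.42 CPM in Msx1-negative and 7.86 and 9.18 CPM in Msx1-positive cells at day 8, but at 13.6 and 14.5 CPM against 14.3 and 15.9 CPM at day 16, where the groups overlapped. Its sorted difference was 2.67 ± 0.15 at day 8 and 0.11 ± 0.12 at day 16, and the change of that difference was -2.56 ± 0.19 (adjusted p = 1.9e-07). Wnt4 followed the same course, from 2.46 and 2.46 CPM against 5.70 and 6.88 CPM to 13.6 and 14.9 CPM against 14.3 and 16.2 CPM. Wnt7a was at 0.486 and 0.517 CPM against 2.67 and 2.82 CPM at day 8, and at 3.17 and 3.63 CPM against 4.07 and 3.96 CPM at day 16. In all 3 the Msx1-negative cells rose between the days by more than the Msx1-positive cells did: for Wnt11 by 3.38 ± 0.15 against 0.83 ± 0.12, for Wnt4 by 2.53 ± 0.14 against 1.27 ± 0.13, and for Wnt7a by 2.76 ± 0.23 against 0.55 ± 0.19. The rise of Wnt7a in Msx1-positive cells was lost without any 1 of the 4 Msx1-positive libraries (adjusted p 0.0907 to 0.153), with library size alone as the scale (0.0824) and without the filter on low counts (0.0726). Wnt10a was at 0.211 and 0.573 CPM against 3.67 and 4.84 CPM at day 8, and at 1.24 and 1.10 CPM against 3.78 and 4.07 CPM at day 16. The narrowing of its difference, -1.72 ± 0.45, missed the threshold without replicate 1 of the day-8 Msx1-negative cells (-1.13, adjusted p = 0.0553). Wnt9a, at 3.55 and 3.46 CPM against 7.64 and 8.88 CPM at day 8 and 8.36 and 10.6 CPM against 14.8 and 14.5 CPM at day 16, narrowed from 1.24 ± 0.15 to 0.62 ± 0.14, a change that was lost (adjusted p 0.0564 to 0.147) by DESeq2 and without any 1 of 6 of the 8 libraries.

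Wnt7b and Wnt8a were the ligands on the Msx1-negative side. Wnt7b was at 12.5 and 12.7 CPM in Msx1-negative and 7.79 and 10.2 CPM in Msx1-positive cells at day 8, and at 22.7 and 29.2 CPM against 7.42 and 8.67 CPM at day 16. Its day-8 difference of -0.48 ± 0.15 was lost with library size alone as the scale (-0.33) and without replicate 1 of the day-8 Msx1-positive cells (-0.31, adjusted p = 0.101), whereas that of day 16 was -1.69 ± 0.15 (adjusted p = 1.4e-07). Wnt8a was not called at day 8 and was at 1.77 and 1.36 CPM against 0.308 and 0.608 CPM at day 16. Wnt16 went the other way: it was not called at day 8 (0.486 and 0.610 CPM against 0.586 and 0.820 CPM) and was higher in Msx1-positive cells at day 16, at 2.84 and 3.26 CPM against 0.474 and 0.556 CPM. Wnt3a was likewise called at day 16 only, at under 0.7 CPM in every sorted library, and the change of its difference was not called (adjusted p = 0.087). Wnt8b and Wnt9b were not called at either day and stayed below 1.3 CPM. The summed RPKM of the ligands was 32.8 and 37.0 in Msx1-positive against 9.07 and 9.39 in Msx1-negative cells at day 8, and 73.2 and 77.2 against 27.5 and 29.6 at day 16.

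**Figure D3:**
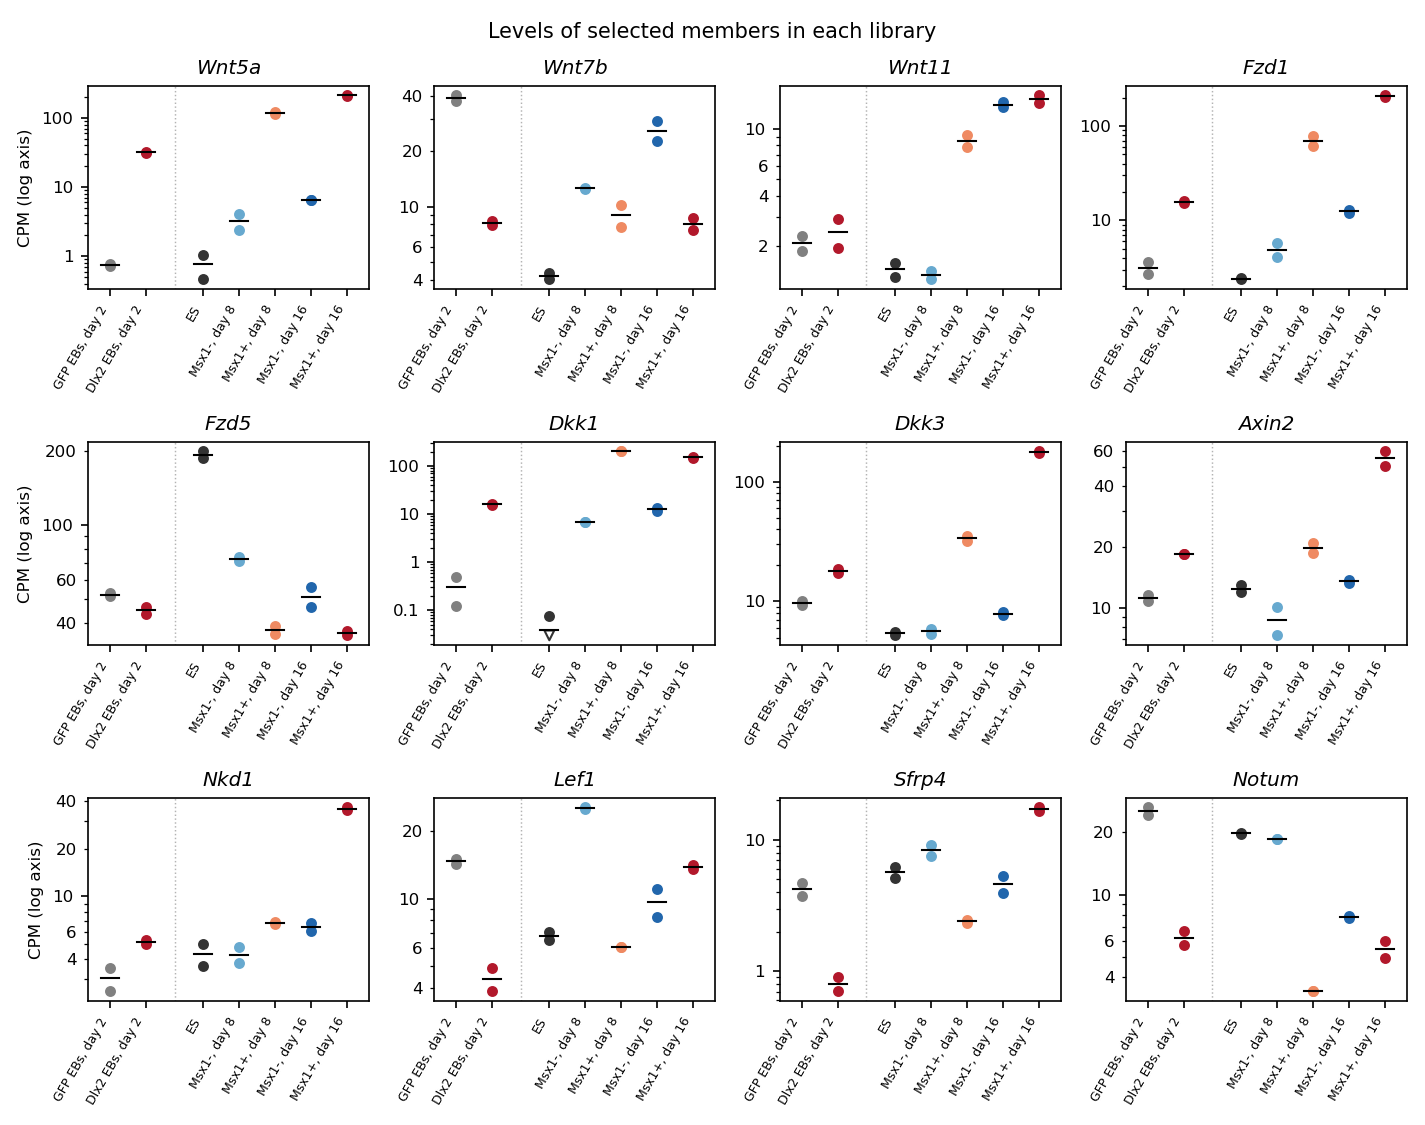
CPM on a log axis of 12 members in each library (points) with the group mean (bar); the dotted line separates the tables that were counted separately, and the open triangle is a library with 0 counts of Dkk1. The Msx1-positive libraries lie above the Msx1-negative ones at both days for Wnt5a, Fzd1, Dkk1, Dkk3 and Axin2, at day 8 for Wnt11, and below them at both days for Notum and Fzd5; for Nkd1 they lie above at both days, and for Lef1 and Sfrp4 the order is opposite at days 8 and 16.

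The Frizzled receptors, which bind the ligands at the cell surface, changed in makeup, with a larger share of Fzd1 and Fzd2 in Dlx2 EBs and Msx1-positive cells. All 10 were called at day 2, 7 higher and 3 lower in Dlx2 EBs, where 34.1% and 33% of all genes were. Fzd2 was at 15.4 and 15.9 CPM in GFP and 69.5 and 78.6 CPM in Dlx2 EBs. In the sorted cells it was at 15.4 and 15.9 CPM against 87.6 and 99.8 CPM at day 8, and at 30.4 and 36.0 CPM against 213 and 223 CPM at day 16. Its log2 change was 2.24 ± 0.08, 2.58 ± 0.09 and 2.71 ± 0.09 in that order. Fzd1 was at 2.72 and 3.6 CPM in GFP and 15.9 and 15.1 CPM in Dlx2 EBs, then at 4.08 and 5.75 CPM against 60.9 and 79.2 CPM, and at 12.1 and 13.0 CPM against 212 and 202 CPM. Its log2 change was 2.30 ± 0.15, 3.84 ± 0.17 and 4.05 ± 0.16. For both receptors the groups were apart in all 3 comparisons, and the sorted difference did not change detectably between the days (adjusted p = 0.56 for Fzd1 and 0.47 for Fzd2).

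Fzd7, a receptor known from ES cells, was the most abundant Frizzled per exon length in every group except the day-16 Msx1-positive cells. It was at 214 and 223 CPM in GFP and 96.5 and 97.5 CPM in Dlx2 EBs (-1.17 ± 0.05). Its share of the receptors' summed RPKM was 64.4% in GFP and 27.6% in Dlx2 EBs, 60.1% against 36.1% in the sorted cells of day 8, and 51.4% against 28.5% at day 16, where Fzd2 led the Msx1-positive cells with 31.7%. In Dlx2 EBs Fzd7 and Fzd2 were close, at 27.81% against 24.78% in replicate 1 and 27.32% against 27.25% in replicate 2. The level of Fzd7 in the sorted cells was 199 and 194 CPM in Msx1-negative and 153 and 179 CPM in Msx1-positive cells at day 8, and 149 and 162 CPM against 241 and 244 CPM at day 16. The day-8 difference of Fzd7, -0.25 ± 0.07, was lost without replicate 1 of the Msx1-positive cells (-0.14, adjusted p = 0.113) and with library size alone as the scale (-0.09), while it was higher by 0.64 ± 0.07 at day 16. Fzd5 was at 187 and 199 CPM in the libraries labelled ES, 74.1 and 71.6 CPM against 36.2 and 38.9 CPM in Msx1-positive cells at day 8, and 46.5 and 56.0 CPM against 35.7 and 37.1 CPM at day 16. Fzd9 was lower in all 3 comparisons, by 1.47 ± 0.23 at day 2, 0.72 ± 0.15 at day 8 and 1.31 ± 0.17 at day 16 on the log2 scale. It stood at 3.90 and 5.25 CPM in GFP and 1.5 and 1.82 CPM in Dlx2 EBs, and at 5.48 and 5.12 CPM against 2.09 and 2.18 CPM at day 16.

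Fzd3, a receptor of planar polarity and axon guidance, was at 19.6 and 18.9 CPM in GFP and 47.1 and 42.5 CPM in Dlx2 EBs. It was at 14.6 and 12.9 CPM against 40.9 and 44.2 CPM at day 8, and at 14.1 and 14.9 CPM against 40.6 and 37.9 CPM at day 16. Fzd8 was at 6.30 and 7.13 CPM against 16.6 and 22.7 CPM at day 8, and at 8.95 and 10.7 CPM against 27.2 and 28.0 CPM at day 16. Both were higher in Msx1-positive cells at both days, with no overlap. Fzd4 was higher by 0.68 ± 0.13 at day 8 and, from 14.6 and 13.1 CPM to 32.2 and 26.6 CPM, by 1.09 ± 0.12 at day 16. Fzd10 rose in Dlx2 EBs, from 16.3 and 15.6 CPM to 36.0 and 36.8 CPM, and was level in the sorted cells of day 8, at 18.7 and 19.1 CPM against 17.6 and 19.99 CPM. The day-2 calls of Fzd4 and Fzd8 were lost by DESeq2 and without 1 Dlx2 library each, that of Fzd5 with library size alone as the scale and without replicate 2 of the Dlx2 EBs, and the day-16 call of Fzd10 without either of 2 libraries. Fzd6 was at 19.0 and 18.5 CPM in GFP and 38.2 and 38.4 CPM in Dlx2 EBs, but at 0.148 to 2.81 CPM in all libraries of the later table. Levels are not comparable between the tables, and the annotation used for each is not given in the sources used here. Within the later table Fzd6 was at 0.211 and 0.148 CPM against 2.81 and 0.933 CPM at day 8 and at 1.23 and 1.33 CPM against 1.26 and 1.01 CPM at day 16.

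**Figure D4:**
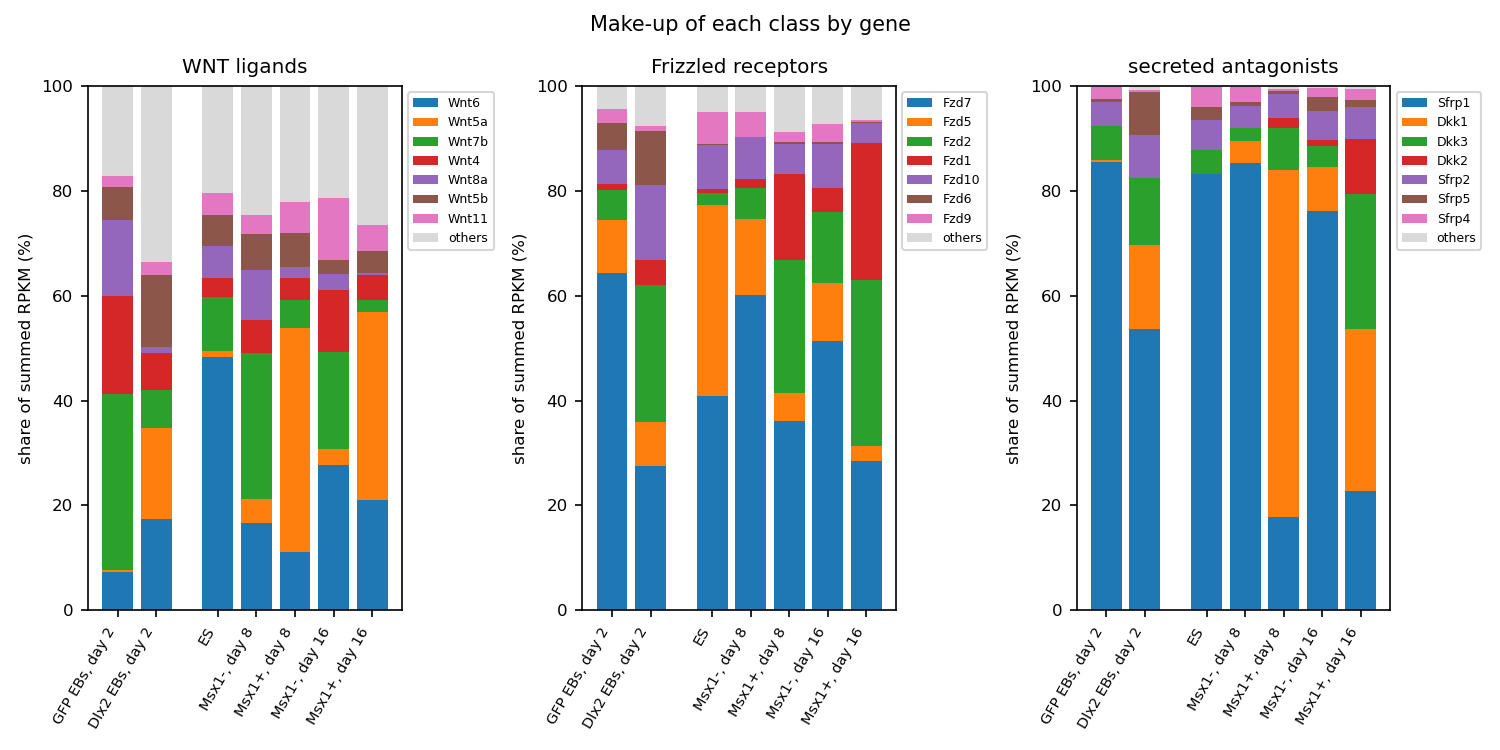
Share of each gene in the summed RPKM (%) of the ligands, the Frizzled receptors and the antagonists, as the mean of the 2 libraries of each group; the 7 genes with the largest share in any group are coloured. Wnt5a, Fzd1 and Fzd2, and Dkk1 take larger shares in Msx1-positive cells, where Dkk1 holds 66.2% of the antagonists at day 8 and 30.9% at day 16.

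Among the antagonists, Dkk1, Dkk2 and Dkk3 were higher in Msx1-positive cells at both days, and Sfrp1 was lower in Dlx2 EBs and in day-8 Msx1-positive cells. DKK proteins block the co-receptors LRP5 and LRP6, while SFRP proteins and WIF1 bind the ligands themselves. Dkk1 was at 0.487 and 0.121 CPM in GFP and 15.6 and 16.4 CPM in Dlx2 EBs. It was at 6.85 and 6.98 CPM in Msx1-negative and 203 and 202 CPM in Msx1-positive cells at day 8, and at 13.1 and 11.9 CPM against 148 and 157 CPM at day 16. The log2 change was 5.70 ± 0.25, 4.87 ± 0.07 and 3.6 ± 0.07, and the sorted difference narrowed between the days by 1.27 ± 0.10 on the log2 scale (adjusted p = 2.2e-07). Dkk1 is the gene with both TCF/LEF matches printed above.

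Dkk2 and Dkk3 had their highest means of the later table in day-16 Msx1-positive cells. Dkk2 was not tested at day 2 and had 0 counts in the libraries labelled ES. It was at 0.0972 and 0.111 CPM against 8.53 and 9.37 CPM at day 8, and at 3.22 and 2.55 CPM against 79.5 and 77.0 CPM at day 16. Relative to the libraries labelled ES, Dkk2 was at least 310-fold higher in day-8 and at least 2680-fold higher in day-16 Msx1-positive cells, with the same floor of 3 counts. Dkk3, a divergent member of the family whose action on WNT signaling is debated, was at 9.38 and 10.1 CPM in GFP and 18.7 and 17.2 CPM in Dlx2 EBs. It was at 5.40 and 5.86 CPM against 32.1 and 35.2 CPM at day 8, and at 7.64 and 8.20 CPM against 179.6 and 174 CPM at day 16. The sorted difference of Dkk3 widened by 1.90 ± 0.11 on the log2 scale (adjusted p = 1.7e-08), while that of Dkk2 narrowed from 6.41 ± 0.20 to 4.76 ± 0.11. Per exon length, Dkk1 and Dkk3 made up 30.9% and 25.9% of the antagonists in day-16 Msx1-positive cells. Dkk4, an exception in its family, stayed at or below 0.196 CPM and was not called in any comparison between the sorted fractions. Wif1 was higher at both days, at 0.146 and 0.240 CPM against 1.14 and 1.47 CPM and then at 0.196 and 0.360 CPM against 2.32 and 3.34 CPM.

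Sfrp1 was the leading antagonist per exon length in GFP EBs, Dlx2 EBs, the libraries labelled ES and both Msx1-negative groups, with 53.7% to 85.6% of the summed RPKM. It was at 164 and 169 CPM in GFP and 97.9 and 97.0 CPM in Dlx2 EBs, and at 254 and 248 CPM in Msx1-negative against 98.0 and 99.0 CPM in Msx1-positive cells at day 8 (-1.35 ± 0.06). At day 16 it was at 211 and 198 CPM against 200.04 and 205 CPM, which overlapped. Sfrp4 crossed over: it was at 7.57 and 9.15 CPM against 2.47 and 2.33 CPM at day 8, and at 5.27 and 3.98 CPM against 16.7 and 17.7 CPM at day 16. The sorted difference of Sfrp4 went from -1.80 ± 0.16 to 1.89 ± 0.15, a change of 3.70 ± 0.22 (adjusted p = 2.1e-08). In the day-2 EBs Sfrp4 fell from 4.67 and 3.76 CPM to 0.703 and 0.897 CPM. Sfrp2, a gene of mesenchyme, was at 6.25 and 5.64 CPM against 12.5 and 13.1 CPM at day 8, and at 7.48 and 7.18 CPM against 25.9 and 28.7 CPM at day 16. Sfrp5 rose at day 2, from 0.528 and 0.687 CPM to 6.73 and 5.99 CPM, and was not called at day 8. Its day-16 call (0.77 ± 0.22) was lost without either of 2 libraries.

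The R-spondins, secreted proteins that strengthen WNT signaling through LGR receptors, were low in all groups. Rspo1 had the largest share of the class per exon length in every group except the day-16 Msx1-positive cells, where Rspo3 had 51.4%. Rspo3 was at 0.178 and 0.148 CPM in Msx1-negative and 1.20 and 1.5 CPM in Msx1-positive cells at day 8, and at 0.556 and 0.867 CPM against 9.33 and 9.01 CPM at day 16. Rspo2, which is required for limb and facial outgrowth, was at 0.324 and 0.185 CPM against 2.40 and 2.51 CPM at day 8, and at 0.0982 and 0.491 CPM against 5.62 and 5.08 CPM at day 16. The log2 difference at days 8 and 16 was 3.04 ± 0.32 and 3.68 ± 0.25 for Rspo3, and 3.24 ± 0.44 and 4.17 ± 0.43 for Rspo2. Neither was called at day 2. Rspo4 was called higher at day 2 and at day 8, both at 0.72 on the log2 scale; the day-2 call was lost by DESeq2 and without any 1 of 3 libraries, and the day-8 call by DESeq2, without the filter on low counts and without any 1 of the 4 libraries. Rspo1 was not called in these comparisons, at 5.20 and 4.92 CPM against 4.40 and 4.67 CPM at day 8 and 3.48 and 3.32 CPM against 2.75 and 2.59 CPM at day 16.

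The targets of the canonical pathway did not move as one. In Dlx2 EBs Axin2, Nkd1, Nkd2, Znrf3 and Lgr5 were higher and Lef1, Tcf7 and Notum were lower. Axin2, a scaffold of the beta-catenin destruction complex and the classic feedback gene of the pathway, was at 10.8 and 11.6 CPM in GFP and 18.4 and 18.5 CPM in Dlx2 EBs. It was at 10.1 and 7.30 CPM in Msx1-negative and 18.7 and 20.9 CPM in Msx1-positive cells at day 8, and at 13.2 and 13.8 CPM against 59.6 and 50.6 CPM at day 16. The log2 change was 0.73 ± 0.10, 1.18 ± 0.13 and 2.03 ± 0.13. Nkd1, a feedback inhibitor that acts on Dishevelled, was at 2.52 and 3.55 CPM in GFP and 5.28 and 5.03 CPM in Dlx2 EBs, at 3.78 and 4.77 CPM against 6.72 and 6.92 CPM at day 8, and at 6.82 and 6.05 CPM against 36.5 and 34.8 CPM at day 16. Its relative Nkd2 was at 4.81 and 6.21 CPM against 11.6 and 11.4 CPM at day 8, and at 6.05 and 5.30 CPM against 26.8 and 30.6 CPM at day 16. All 3 feedback genes were thus furthest above the Msx1-negative cells at day 16, and the widening from day 8 was 0.85 ± 0.18 for Axin2, 1.79 ± 0.17 for Nkd1 and 1.27 ± 0.18 for Nkd2. The day-2 change of Nkd2, 0.42 ± 0.15, was lost by DESeq2 and without either Dlx2 library.

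Lgr5, the R-spondin receptor and stem cell marker, was at 0.0972 and 0.259 CPM against 2.65 and 2.67 CPM at day 8, and at 0.262 and 0.278 CPM against 8.47 and 8.28 CPM at day 16 (3.92 ± 0.32 and 4.94 ± 0.29). In the day-2 EBs it was at 0.122 and 0.242 CPM in GFP and 0.521 and 0.810 CPM in Dlx2. Lef1, a nuclear partner of beta-catenin, was at 14.3 and 15.0 CPM in GFP and 3.85 and 4.92 CPM in Dlx2 EBs. It was at 25.6 and 25.1 CPM in Msx1-negative and 6.07 and 6.09 CPM in Msx1-positive cells at day 8, and at 8.29 and 11 CPM against 13.6 and 14.1 CPM at day 16. The difference of Lef1 went from -2.06 ± 0.12 to 0.51 ± 0.12, a change of 2.58 ± 0.17 (adjusted p = 6.7e-08). Notum, a secreted enzyme that removes the lipid of WNT proteins, was at 24.2 and 26.4 CPM in GFP and 5.69 and 6.65 CPM in Dlx2 EBs, at 18.5 and 18.6 CPM against 3.43 and 3.42 CPM at day 8, and at 7.72 and 7.87 CPM against 5.98 and 4.93 CPM at day 16. It was below the comparison group in all 3 comparisons, by 2.04 ± 0.11, 2.44 ± 0.13 and 0.52 ± 0.13 on the log2 scale. Tcf7, another nuclear partner and the most abundant of the 8 per exon length in every group, fell by 0.47 ± 0.07 at day 2 and was lower by 0.63 ± 0.07 on the log2 scale in day-8 Msx1-positive cells, at 71.0 and 75.6 CPM against 47.7 and 47.3 CPM. At day 16 Tcf7 was at 48.2 and 54.7 CPM against 45.8 and 47.1 CPM and was not called. Znrf3, a ligase that removes Frizzled receptors, stayed between 23.1 and 33.3 CPM in all sorted libraries; it was not called at day 8 and was higher by 0.44 ± 0.11 at day 16.

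The sorted difference of 22 of the 50 members changed between days 8 and 16 by the test of the difference itself. Of the 50, 13 went up, against 10.3% of all genes, and 9 went down, against 18.3%. The median change of the 50 members was 0.256, beside -0.0971 over all genes tested. By role, 6 of the 8 targets (Axin2, Lef1, Tcf7, Nkd1, Nkd2 and Notum) and 4 of the 9 antagonists (Sfrp1, Sfrp2, Sfrp4 and Dkk3) went up, whereas 6 of the 19 ligands went down and 1, Wnt16, went up. With library size alone as the scale the members' split was 12 up and 13 down, and over all genes 1088 up and 5912 down in place of 2294 and 4090.

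**Figure D5:**
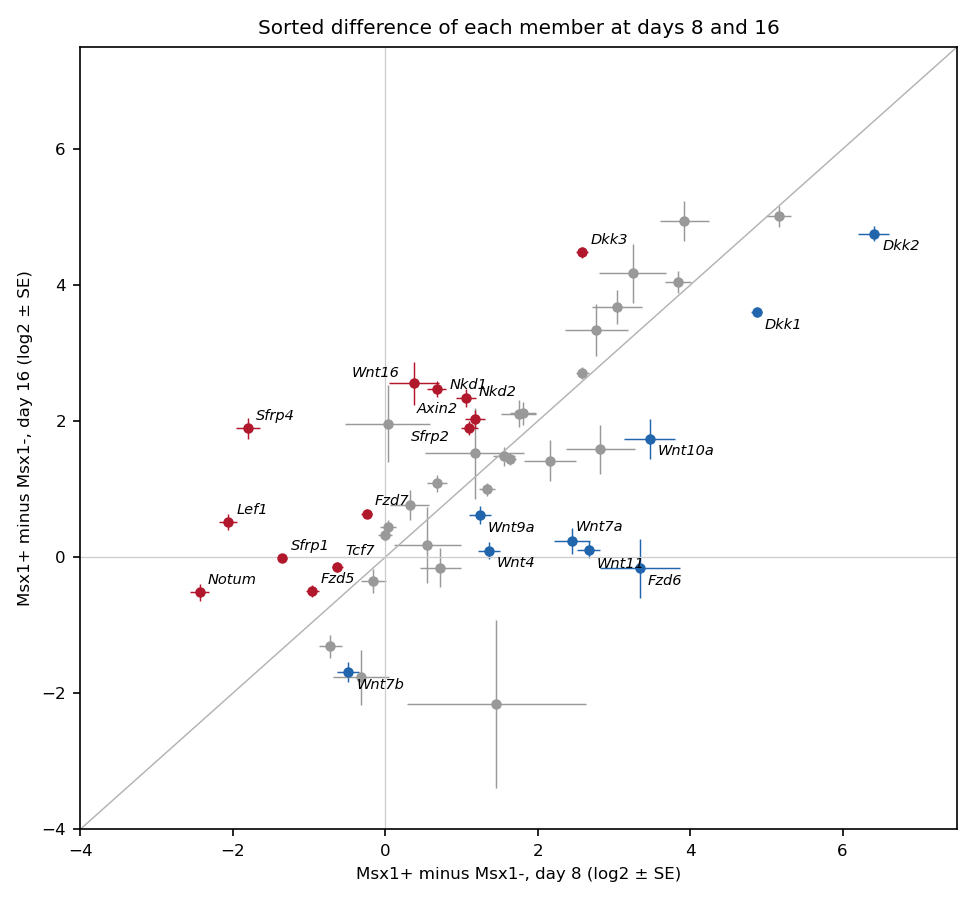
Msx1-positive minus Msx1-negative log2 difference of each member at day 8 (horizontal) and at day 16 (vertical), with standard errors; Wnt1 and Wnt2 are not drawn, and the grey line marks equal differences. Named members are the 22 whose difference changed between the days, red upward and blue downward. Notum, Lef1, Sfrp1 and Sfrp4 are among those to the left of 0 at day 8. Wnt4, Wnt7a, Wnt11 and Fzd6 are among those close to 0 at day 16.

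Within each fraction the members mostly rose with time. In Msx1-positive cells 34 of 50 were higher at day 16 than at day 8, against 21.1% of all genes, and 6 were lower, against 24.8%. In Msx1-negative cells 26 of 50 were higher, against 19.7% of all genes, and 10 of 50 were lower, against 17.8%. The medians were 1.00 and 0.557, beside -0.034 and 0.0122 over all genes tested. With library size alone as the scale, 3717 genes in all rose and 6999 fell in Msx1-positive cells in place of 4713 and 5526, and 5061 rose and 2984 fell in Msx1-negative cells in place of 4399 and 3974; the members' counts were then 32 and 7, and 26 and 10. Of the 8 targets, 6 rose and 0 fell in Msx1-positive cells, while in Msx1-negative cells 2 rose (Axin2 and Nkd1) and 3 fell (Lef1, Tcf7 and Notum). Dkk1 fell by 0.41 ± 0.06 in Msx1-positive cells and rose by 0.85 ± 0.08 in Msx1-negative cells. Sfrp1 rose by 1.04 ± 0.06 in Msx1-positive cells and fell by 0.30 ± 0.06 in Msx1-negative cells. The genes that fell in Msx1-positive cells were Wnt8a, Wnt8b, Fzd9, Dkk1, Rspo1 and Rspo4. The call of Wnt8a was lost without replicate 1 of the day-16 Msx1-positive cells (-1.01). The rise of Rspo2 lost its call without any single Msx1-positive library (1.045 to 1.187). Those of Wnt5b, Fzd8, Fzd10 and Wif1 lost theirs without some of these libraries. Members that showed no detectable change there at over 10 CPM were Fzd3, Fzd5, Tcf7 and Znrf3.

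The libraries labelled ES, whose level of Dlx2 goes against their label, served as a further reference. Against them 36 of the 50 members were higher in day-8 Msx1-positive cells, beside 34.6% of all genes, and 7 of 50 were lower, beside 26.9%. In day-8 Msx1-negative cells 18 of 50 were higher, beside 19% of all genes, and 9 of 50 lower, beside 14.5%. At day 16, 38 of 50 were higher in Msx1-positive cells, beside 37.3% of all genes, and 5 of 50 lower, beside 33.7%. In day-16 Msx1-negative cells 28 of 50 were higher, beside 28.5% of all genes, and 9 of 50 lower, beside 24.5%. The count of 9 lower in day-8 Msx1-negative cells was 4 without replicate 1 of that group and 5 without replicate 2. Each of the 4 sorted groups shares the same reference libraries here. Wnt6 led the ligands in the libraries labelled ES, at 8.76 and 8.94 CPM and 48.3% of their summed RPKM, and Wnt5a was at 0.463 and 1.06 CPM. Dkk1 was at 0.0772 and 0 CPM in them and at 6.85 and 6.98 CPM in day-8 Msx1-negative cells. Fzd5 was lower than in the libraries labelled ES in all 4 sorted groups, by 1.41 ± 0.08 to 2.41 ± 0.08 on the log2 scale, as was Fzd9, by 0.51 ± 0.16 to 2.37 ± 0.17. The smallest of these, Fzd9 in day-8 Msx1-negative cells, was lost without replicate 1 of the libraries labelled ES (-0.32, adjusted p = 0.233) and without either library of its own group (adjusted p = 0.0679 and 0.112).

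Of 68 other genes of the pathway, 66 were tested at day 2, where 34 were higher and 16 lower in Dlx2 EBs, against 34.1% and 33% of all genes. Among the 67 tested in the sorted cells, 42 rose and 11 fell in the Msx1-positive fraction at day 8 (30.4% and 24.3% of all genes), and 44 and 13 at day 16 (31.1% and 31%). Of 13 co-receptors and other surface partners, 10 were higher and 1 lower at both days. A further list of 16 genes mixed targets with secreted antagonists such as Frzb and Sostdc1. Of these 16, 9 were higher and 4 lower at day 8, and 14 and 2 at day 16. The pair of genes for making and releasing WNT proteins parted: Wls, the carrier that takes WNT proteins to the cell surface, rose while Porcn, the enzyme that adds their lipid, was lower in each of these 3 comparisons, by 2.40 ± 0.10, 2.09 ± 0.09 and 2.42 ± 0.10 on the log2 scale; Porcn was picked out after its values were seen. Wls was at a mean of 9.15 CPM in GFP and 62.6 CPM in Dlx2 EBs, 11.2 against 155 CPM in the sorted cells of day 8 and 51.6 against 352 CPM at day 16, a log2 change of 2.77 ± 0.09, 3.78 ± 0.07 and 2.77 ± 0.07. At day 2 the largest changes among those at 10 CPM or more were those of Cdx4, Gpc3, Prickle2 and Wls, all higher in Dlx2 EBs. Cdx4, a posterior homeobox gene, was at a mean of 0.729 and 26.7 CPM. In the sorted cells Daam2, a formin that acts with Dishevelled, and Tle2, a co-repressor of the Groucho family, were at means of 1.30 and 1.70 CPM in day-8 Msx1-negative and 70.2 and 25.5 CPM in Msx1-positive cells. Frzb, a secreted antagonist of the SFRP family, was at 0.476 against 28.8 CPM at day 8, and Sostdc1, another secreted antagonist, at 0.548 against 33.1 CPM at day 16.

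The ligand genes include neighbours in the genome. On GRCm38, Wnt6 and Wnt10a lie 6.2 kb apart on chromosome 1, Wnt10b and Wnt1 11.7 kb apart on chromosome 15, and Wnt3a and Wnt9a 16.2 kb and Wnt9b and Wnt3 24.3 kb apart on chromosome 11. Within these pairs the calls were not always alike: at day 2 Wnt6 was higher and Wnt10a was not called, and at day 8 Wnt9a and Wnt3 were higher and their neighbours Wnt3a and Wnt9b were not called. Exons of 10 of the 50 members overlap exons of a gene on the opposite strand in GENCODE vM21: Wnt5a, Wnt7b, Wnt11, Fzd5, Fzd6, Sfrp2, Rspo3, Axin2, Lef1 and Notum. The largest overlap with a single exon of a partner ran from 105 bases for Axin2 to 1233 bases for Fzd5. The library kit does not mark strand, so reads within the overlaps cannot be told apart from those of the antisense partners.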

How the data were processed

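Both deposited files hold counts: whole read numbers for each gene symbol and library, not normalised. Per the submitters' processing notes, the tools were HISAT2 2.1.0, fastp 0.20.0 and DESeq2 1.18.1, and the build was GRCm38. Which program and which annotation gave the counts is not given in the sources used here. Libraries were made with an NEBNext Ultra RNA kit, per the labels' protocols.

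The labels describe 18 samples in 9 groups; 14 libraries in 7 groups have a column. Day-2 columns name the line only and were taken as induced EBs, since the design text speaks of overexpressing EBs; the 4 uninduced samples were not analysed here. Each table was fitted on its own (day 2 with 4 libraries, the sorted cells with 8, and comparisons with the libraries labelled ES with 10, on 22504 genes). Genes were kept by filterByExpr, scaled by TMM and tested two-sided with edgeR 4.0.16 (glmQLFit, robust; glmQLFTest) in R 4.3.3, with Benjamini-Hochberg adjustment over all genes tested. DESeq2 1.42.0, RLE scaling, library size alone, other filters, a replicate block and leaving out each library were alternatives. The test script was tested on simulated data. Standard errors (the absolute log2 change over the square root of F) understate the error of genes with few counts in a group. Where a group had 0 counts, folds are bounds against 3 counts over the group; these cover counting error only, since reads are not independent molecules. Exon lengths are from GENCODE vM21. With 2 libraries a group, an exact permutation test cannot give a p below 0.333, so only the fit across genes was used.

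Replicate numbers were not taken as pairs: of 10 correlations between the deviations of same-numbered libraries, from -0.0465 to 0.117, 1 was over 0.1, and the correlation at day 2, by the numbers in the column names, was 0.0424. No 2 libraries of a group agreed within sampling noise (chi-square per degree of freedom 4.13 to 18.5). Members, lists and named genes were chosen with earlier results of these data known. Library values were given for members with a group mean of at least 1 CPM and a called log2 change of at least 1. This was done for up to 10 members per role, at day 2 and between the sorted fractions. For changes with time and against the libraries labelled ES, only some such values were given. At most 4 other pathway genes with at least 10 CPM were named per comparison.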

Additional observations from a re-analysis of the deposited data

Results flagged for a closer look

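For 22 members the difference between Msx1-positive and Msx1-negative cells at day 16 was not that at day 8, by edgeR's test of the change of the difference over all genes. All values are the day-16 log2 difference minus the day-8 one, and adjusted p-values ran from 1.68e-08 to 0.0294. Among the ligands the change was -1.26 for Wnt4, -2.21 for Wnt7a, -1.21 for Wnt7b, -0.62 for Wnt9a, -1.72 for Wnt10a and -2.56 for Wnt11, and 2.18 for Wnt16. Among the receptors it was 0.46 for Fzd5, -3.50 for Fzd6 and 0.88 for Fzd7. Among the antagonists it was 1.33 for Sfrp1, 0.79 for Sfrp2, 3.70 for Sfrp4, -1.27 for Dkk1, -1.65 for Dkk2 and 1.90 for Dkk3. Among the targets it was 0.85 for Axin2, 2.58 for Lef1, 0.48 for Tcf7, 1.79 for Nkd1, 1.27 for Nkd2 and 1.92 for Notum. Lef1 and Sfrp4 were called lower in Msx1-positive cells at day 8 and higher at day 16. Fzd7 was also lower and then higher, but its day-8 call was lost without replicate 1 of the Msx1-positive cells.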

How the results depend on the processing

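The alternatives were scored for members with a mean of at least 1 CPM in a group of the comparison. They include fits that leave out a library which the comparison does not use. Of the members' log2 changes scored so, none changed sign while called. A call was kept by 4897 of the values, lost by 119 and gained by 41, and 1233 were called in neither fit. Most losses (93) came from leaving out a library. With library size alone as the scale, the median of all genes moved by 0.174 at day 2, 0.154 at day 8, -0.187 for the change of the sorted difference, -0.116 for time in Msx1-positive cells, and 0.186 and 0.105 for day-8 Msx1-positive and day-16 Msx1-negative cells against the libraries labelled ES; genes whose sorted difference went up then numbered 1088 in place of 2294. Leaving out 1 library gave 4 to 9 members, and 2176 to 3340 genes in all, lower in day-8 Msx1-negative cells than in the libraries labelled ES, in place of 9 and 3271; the lowest value of each came without replicate 1 of the day-8 Msx1-negative cells, where the lone library is assumed to vary like the other groups. With a replicate block the members' counts were 28 higher and 12 lower at day 2, where the numbers are those of the column names, 31 and 9 at day 8, 34 and 5 at day 16, and 14 and 9 for the change of the difference. The rise of Sfrp2 over time in Msx1-negative cells (0.30 ± 0.11) was lost under 5 of the alternatives that keep all libraries. Members below about 1 CPM, such as Wnt1, Dkk4 and Wnt9b, rest on few counts, and a difference not called there was not detectable at this depth.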
